A study of Homo sapiens with 12 samples.

Results

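The classical target genes of the oestrogen receptor (ER) were examined as a set of 8 genes, TFF1, TFF3, GREB1, PGR, PDZK1, MYB, CA12 and STC2. Their rows were taken by gene symbol from a count table of 60612 named rows, in which each of the 8 symbols occurs on a single row. The set was drawn up with earlier results of these data known. All 8 passed the filter on low counts and are among the 11803 genes tested, although PDZK1 did so only because of its level under abemaciclib. Transcripts were measured by 3′ RNA sequencing of CAMA-1, an established ER-positive breast cancer cell line of wild-type genotype. Cultures grown in RPMI-1640 with 10% serum were treated with DMSO as vehicle, with 100 nM abemaciclib, which inhibits CDK4 and CDK6, with 5 nM fulvestrant, which degrades ER, or with abemaciclib and fulvestrant together, and the study's methods place the RNA of its cell lines at 5 days of treatment. The labels give no separate doses for the combination. There were 3 biological replicates per group and 12 libraries in all, each of between 3299119 and 5164667 counts, and because only 1 line was used the measurements describe CAMA-1 and no other cell.

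ER is a nuclear receptor that binds oestradiol, attaches to enhancers together with pioneer factors such as FOXA1 and GATA3, and recruits coactivators that raise transcription of linked genes. The 8 genes are long-used readouts of this activity in breast cancer cells. Fulvestrant binds the receptor, blocks its coactivator surface and marks it for degradation, whereas abemaciclib holds the retinoblastoma protein in its unphosphorylated, growth-suppressing form by blocking the kinases that cyclin D activates.

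The members lie on 7 chromosomes and differ in length and exposure to neighbouring transcription (GRCh38, GENCODE gene models). TFF1 (chr21:42362282-42366535) and TFF3 (chr21:42311667-42315409) are neighbours on the minus strand, 46872 bp apart, in the trefoil cluster. GREB1 (chr2:11482341-11642788, plus strand) is the longest at 160448 bp. PGR (chr11:101029624-101129813), PDZK1 (chr1:145670852-145708148), CA12 (chr15:63321378-63381846) and STC2 (chr5:173314723-173328447) are on minus strands, and MYB (chr6:135181308-135219173) is on the plus strand. All are annotated as protein coding. PGR and MYB each have an antisense gene, PGR-AS1 with 4 reads over the 12 libraries and MYB-AS1 with 0. GREB1 contains 5 small-RNA or pseudogene rows, of which RN7SL674P held 159 reads and RNA5SP84 held 20. PDZK1P1, the pseudogene copy of PDZK1, held 0 reads.

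Sequence before the start site is shown for 3 members chosen to span the responses described below: PGR, which nearly disappeared under fulvestrant, PDZK1, which was read almost only under abemaciclib, and MYB, for which no change with fulvestrant was called. Each stretch is the 250 bases before an annotated start (RefSeq, GRCh38.p14), written 5′ to 3′ on the gene's own strand. Capitals mark matches to the motifs named in the next paragraph. PGR is chr11:101129814-101130063 (minus strand), PDZK1 is chr1:145707401-145707650 (minus strand) and MYB is chr6:135181058-135181307 (plus strand).
PGR: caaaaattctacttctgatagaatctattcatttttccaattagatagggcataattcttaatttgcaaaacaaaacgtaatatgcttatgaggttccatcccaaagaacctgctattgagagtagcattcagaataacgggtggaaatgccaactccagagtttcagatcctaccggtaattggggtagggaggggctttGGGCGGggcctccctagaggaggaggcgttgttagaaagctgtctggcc
PDZK1: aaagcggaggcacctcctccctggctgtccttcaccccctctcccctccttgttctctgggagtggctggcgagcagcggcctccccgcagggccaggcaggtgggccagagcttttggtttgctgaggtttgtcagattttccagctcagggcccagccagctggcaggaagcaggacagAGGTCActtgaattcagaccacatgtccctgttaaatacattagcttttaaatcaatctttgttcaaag
MYB: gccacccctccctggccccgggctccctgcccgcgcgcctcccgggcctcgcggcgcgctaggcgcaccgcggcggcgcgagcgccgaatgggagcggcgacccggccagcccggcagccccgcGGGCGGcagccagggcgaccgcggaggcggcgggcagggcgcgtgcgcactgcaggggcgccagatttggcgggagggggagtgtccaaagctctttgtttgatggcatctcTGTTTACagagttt

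Motifs were searched on both strands in windows from 250 bases before to 50 bases after each start, for the 5 members with an entry in the promoter table used (PGR, PDZK1, MYB, CA12 and STC2, 8 windows) and in all 35116 windows of that table. The full oestrogen response element, GGTCANNNTGACC, occurred in 0.057% of all windows and in none of the members' windows. A single arm of it, AGGTCA, which can form part of the full element, occurred in 13.8% of all windows and among the members only before PDZK1, 69 bases before the start shown. The forkhead core TGTTTAC occurred in 3.42% of all windows and among the members only before MYB, 14 bases before its start. The GC box GGGCGG, present in 45% of all windows, was found at PGR, MYB and CA12. The AP-1 core TGANTCA, present in 7.71% of all windows, was found in no member's window, and STC2 held none of the 5 motifs. The stretches also differed in base composition, with 43.6% G and C before PGR, 55.6% before PDZK1 and 75.6% before MYB. These are letter matches near the start sites only, and ER binding was not measured in these libraries.

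The 8 genes rose with abemaciclib and most fell with fulvestrant. Abemaciclib raised 8 of 8 members against DMSO (quasi-likelihood test of edgeR, p adjusted by Benjamini-Hochberg over all genes tested, threshold 0.05), where 20.5% of the 11803 genes were called higher and 20.7% lower. Their median log2 fold change was 1.34, against 0.00046 over all genes tested. Without PDZK1 the count was 7 of 7 and the median 0.84. Fulvestrant lowered 7 of 8 members (6 of 7 without PDZK1) and raised none, where 25.7% of all genes were called lower and 25.3% higher. The members' median was -1.66 with PDZK1, of which no read was found under fulvestrant, set at a limit of 3 reads. Without PDZK1 the median was -1.76, against 0.0075 over all genes. In a bulk culture, fewer cells that express a gene and less RNA per cell cannot be told apart.

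With fulvestrant added, the levels seen with abemaciclib were not reached. The combination lay below abemaciclib alone for 7 of 8 members (6 of 7 without PDZK1), where 17.7% of all genes were called lower and 15.9% higher. The median was -3.79, and -3.73 without PDZK1. Against DMSO the combination lowered 6 of 8 (6 of 7 without PDZK1) and raised none, where 27.5% of all genes were called lower and 27.7% higher. Here the median was -1.53, and -1.75 without PDZK1. Abemaciclib alone exceeded fulvestrant alone for 8 of 8 (7 of 7 without PDZK1), where 15.5% of all genes were called higher and 13.4% lower. All comparisons with DMSO share the same 3 DMSO libraries.

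Adding abemaciclib to fulvestrant gave no call for any of the 8 genes, where 0.297% of all genes were called higher and 1.63% lower. By edgeR, 3 members had an unadjusted p under 0.05 in this comparison (GREB1 and PGR higher, STC2 lower), where 1368 of the 11803 genes did. By DESeq2 0 members passed the adjusted threshold, where 208 of the 11803 genes did. The interaction, which is the log2 change with abemaciclib in the presence of fulvestrant minus that in its absence, was negative past the threshold for 4 members (TFF1, TFF3, CA12 and STC2) and positive for none. Over all genes it was positive for 9.49% and negative for 11.6%. That split depended on the scaling, with 1120 of 2493 calls positive under TMM factors and 1626 of 2646 when only library totals were used.

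**Figure D1:**
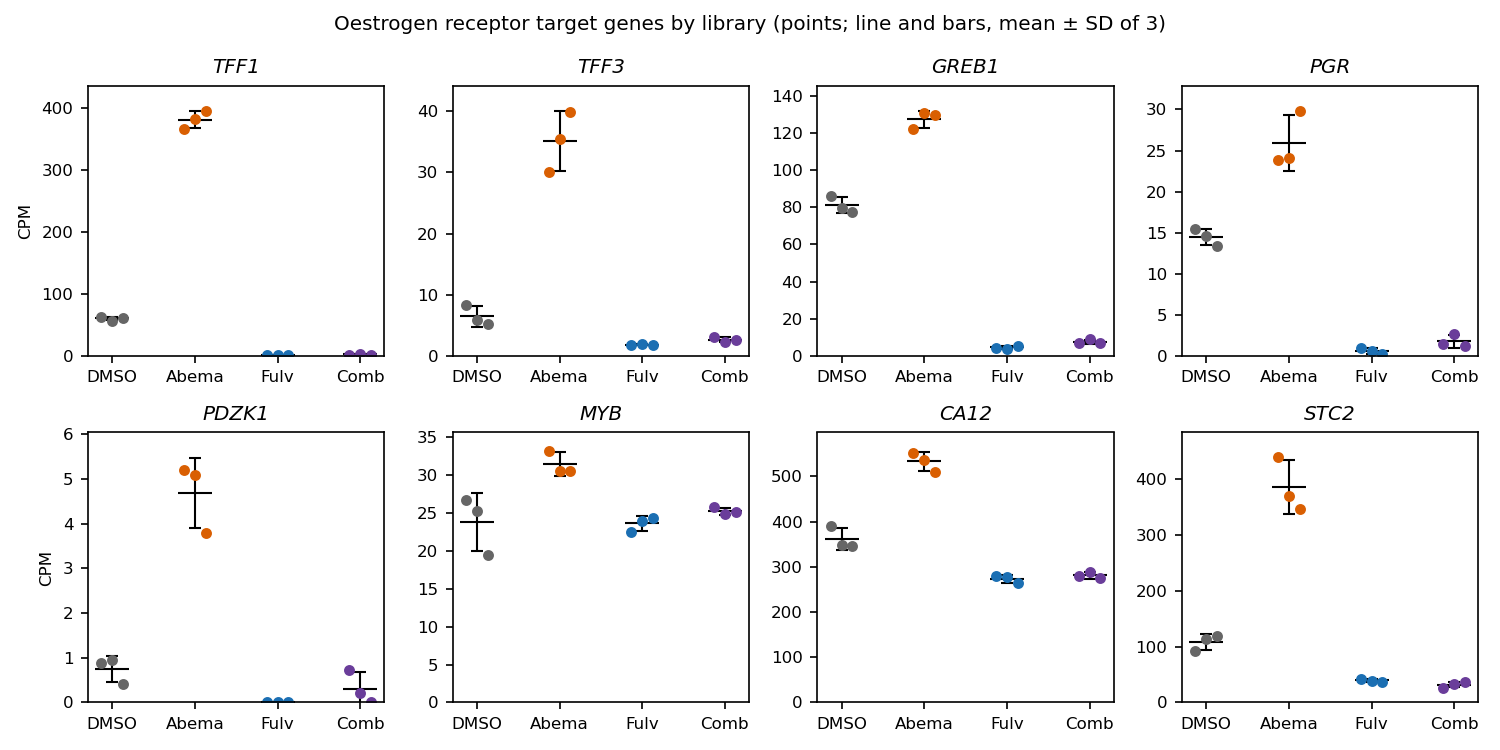
Read counts as CPM (y axis, linear from 0 and scaled per panel) of the 8 genes in each of the 12 libraries (points) by treatment (x axis, DMSO, abemaciclib, fulvestrant and combination), with the mean ± SD of 3 libraries as line and bars. For TFF1 the 3 abemaciclib libraries lie between 367 and 395 CPM, above the other 9.

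TFF1 encodes a small secreted trefoil peptide of mucosal and breast epithelium. Levels are given as CPM, the reads of a gene scaled to a library size common to all samples, and 3′ tags make them depend little on length. In DMSO its 3 libraries read 62.3, 57.2 and 62.0 CPM, and with abemaciclib 367, 383 and 395 CPM. With fulvestrant they read 1.73, 1.97 and 0.684 CPM, from 17 reads in all, and with the combination 1.92, 2.89 and 2.14 CPM. The abemaciclib libraries stood far above DMSO, both fulvestrant-containing groups far below it, and these last groups overlapped. TFF1 rose 6.31-fold with abemaciclib (95% CI 5.53 to 7.21) and fell 41.7-fold with fulvestrant (log2 fold change -5.38 ± 0.19 SE). By size of the change TFF1 ranked 43 from the top of all genes tested under abemaciclib and 10 from the bottom under fulvestrant.

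TFF3, the neighbouring trefoil gene, also codes for a secreted mucosal peptide. It read 8.31, 5.89 and 5.17 CPM in DMSO and 30.0, 35.5 and 39.9 CPM with abemaciclib. With fulvestrant the libraries gave 1.73, 1.97 and 1.82 CPM, and with the combination 3.13, 2.27 and 2.52 CPM. No group overlapped another, and the combination lay just above fulvestrant. TFF3 rose with abemaciclib by 2.47 ± 0.19 (log2, SE) with an edgeR adjusted p of 4.94e-11, close to the 2.66 ± 0.093 of TFF1. Its fall with fulvestrant was much smaller, at -1.76 ± 0.32 (edgeR adjusted p 3.75e-05), or 3.39-fold. The 22 reads left under fulvestrant still set it well above its floor, which for 3 reads over the group's libraries was 0.250 CPM.

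STC2 codes for stanniocalcin 2, a secreted glycoprotein related to a calcium-regulating hormone of fish. Its DMSO libraries read 91.4, 113 and 118 CPM, and its abemaciclib libraries 439, 369 and 347 CPM. Under fulvestrant it read 42.3, 38.4 and 37.1 CPM, and under the combination 26.5, 32.7 and 36.7 CPM. The order was abemaciclib, DMSO, fulvestrant and combination without overlap, which made STC2 the only member whose mean was lowest under the combination. The rise with abemaciclib was 3.57-fold (log2 1.84 ± 0.11 SE, edgeR adjusted p 1.86e-12) and the fall with fulvestrant 2.75-fold (log2 -1.46 ± 0.12 SE, edgeR adjusted p 4.57e-10). The last step, combination against fulvestrant, was -0.29 (95% CI -0.57 to -0.010) and was not called by edgeR (adjusted p 0.405).

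PGR encodes the progesterone receptor, a nuclear receptor whose presence is used clinically as a sign of a working ER. It read 15.4, 14.6 and 13.4 CPM in DMSO and 23.8, 24.1 and 29.8 CPM with abemaciclib. Fulvestrant left 4, 2 and 1 reads in the 3 libraries (0.988, 0.564 and 0.228 CPM), and the combination left 6, 13 and 6 reads (1.44, 2.69 and 1.17 CPM). The 4 groups did not overlap. PGR rose 1.78-fold with abemaciclib (edgeR adjusted p 0.00063) and fell 23.6-fold with fulvestrant (95% CI of the ratio 0.0252 to 0.0711). Its level with the combination was 2.93-fold that with fulvestrant (95% CI 1.34 to 6.39), which at these read numbers did not pass the threshold by edgeR (adjusted p 0.201).

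GREB1 encodes a chromatin-associated protein that binds ER and was named for growth regulation by oestrogen in breast cancer. It read 86.1, 79.8 and 77.5 CPM in DMSO and 122, 130 and 129 CPM with abemaciclib. With fulvestrant it read 4.45, 3.95 and 5.47 CPM, and with the combination 6.98, 8.89 and 7.18 CPM. As for PGR, the order was abemaciclib, DMSO, combination and fulvestrant with no overlap. The changes were 0.65 ± 0.095 with abemaciclib (log2, SE; edgeR adjusted p 3.25e-06), -4.11 ± 0.15 with fulvestrant (adjusted p 2.47e-18) and -3.39 ± 0.13 with the combination (adjusted p 3.47e-18). The combination exceeded fulvestrant by 0.72 ± 0.20 (edgeR adjusted p 0.0807). Without fulvestrant replicate 3, the library that correlated least with its group, this difference was 0.87 with an edgeR adjusted p of 0.0378, the only call for a member in that comparison in any refit.

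MYB encodes a DNA-binding transcription factor that controls proliferation and differentiation. Its libraries read 26.7, 25.3 and 19.4 CPM in DMSO, 33.2, 30.5 and 30.6 CPM with abemaciclib, 22.5, 24.0 and 24.4 CPM with fulvestrant, and 25.7, 24.8 and 25.0 CPM with the combination. The abemaciclib libraries were above the other 9, while DMSO spanned the fulvestrant group. MYB rose by 0.41 ± 0.14 with abemaciclib (log2, SE; edgeR adjusted p 0.0164). This call was lost without DMSO replicate 3, the lowest of its group (0.29, adjusted p 0.125), and without abemaciclib replicate 1, the highest of its group (0.37, adjusted p 0.0669). With fulvestrant the change was -0.0021 ± 0.14 (95% CI -0.29 to 0.29, edgeR adjusted p 0.991), an interval that runs from 0.816-fold to 1.22-fold. The combination lay 0.32 below abemaciclib on the log2 scale (95% CI -0.59 to -0.05), which did not pass the adjusted threshold by edgeR (0.0648) but did when only these 6 libraries were fitted (0.0406).

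PDZK1 codes for a scaffold protein whose PDZ domains hold transporters at the cell membrane. It was the least read member, with 3, 5 and 2 reads in the DMSO libraries, 26, 23 and 15 with abemaciclib, 0, 0 and 0 with fulvestrant, and 3, 1 and 0 with the combination. In CPM the abemaciclib libraries stood at 5.20, 5.08 and 3.79 and the DMSO libraries at 0.890, 0.950 and 0.413. From the summed reads, abemaciclib was 6.39 times DMSO (95% counting interval 3.26 to 14.0) and 16.8 times the combination (6.24 to 63.5). Taking 3 reads over the group as the limit of an unread gene (0.250 CPM under fulvestrant), PDZK1 in DMSO read 2.96-fold that limit and with abemaciclib 19.0-fold. Both ratios leave out the counting error of the higher group. Its 95% counting interval was 0.356 to 1.37 CPM in DMSO and 3.65 to 6.06 CPM with abemaciclib. These reads are given as a description, since PDZK1 entered the genes tested only through its abemaciclib level. With 10 and 4 reads, the interval of the ratio of DMSO to the combination (2.63) ran from 0.757 to 11.5.

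CA12 encodes a carbonic anhydrase anchored in the plasma membrane with its active site outside the cell. It read 390, 349 and 345 CPM in DMSO, 552, 537 and 510 CPM with abemaciclib, 279, 278 and 263 CPM with fulvestrant, and 280, 289 and 274 CPM with the combination. Abemaciclib libraries were highest, DMSO intermediate, and both fulvestrant-containing groups lowest and overlapping. The changes were modest but well resolved, at 1.48-fold higher with abemaciclib (log2 0.56 ± 0.073 SE, edgeR adjusted p 5.41e-07) and 1.32-fold lower with fulvestrant (log2 -0.40 ± 0.074 SE, edgeR adjusted p 5.35e-05). The combination differed from fulvestrant by 0.04 (95% CI -0.11 to 0.19), the narrowest interval of that comparison among the members.

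**Figure D2:**
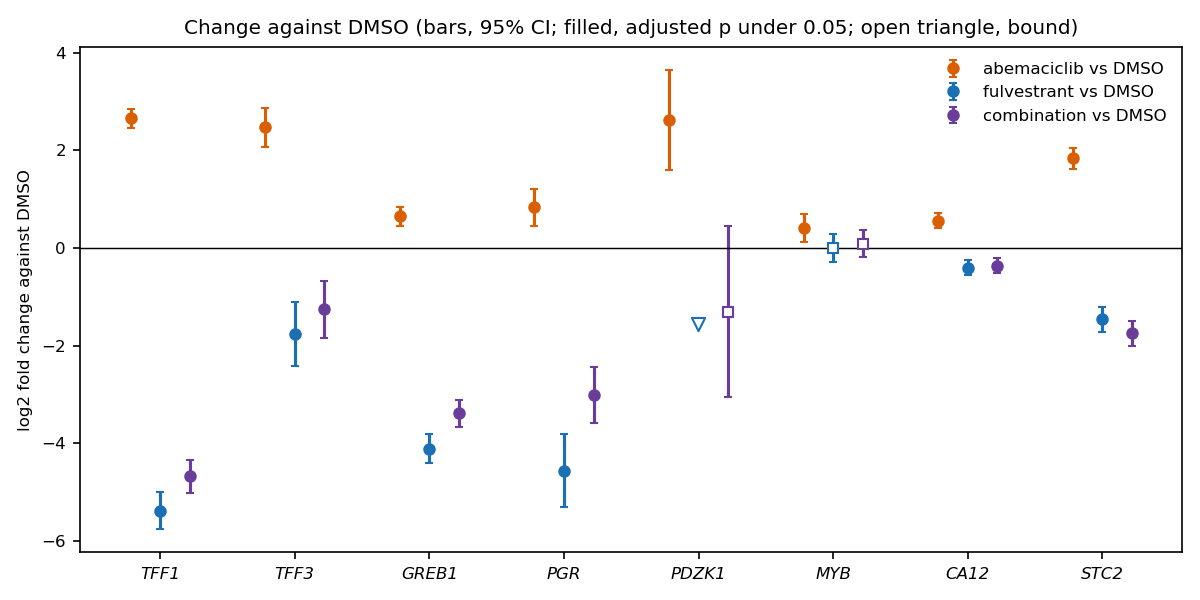
Log2 fold change against DMSO (y axis) of the 8 genes (x axis) with abemaciclib, fulvestrant and the combination, with 95% confidence intervals derived from the edgeR test. Filled points passed the adjusted threshold and open squares did not. The open triangle sets PDZK1 under fulvestrant, where no read was found, at a limit of 3 reads, without counting error in DMSO. All abemaciclib points lie above 0, from 0.41 for MYB to 2.66 for TFF1, and the fulvestrant points spread from near 0 for MYB to -5.38 for TFF1.

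The members differed in how far each drug moved them. PDZK1 is left out of the order of rises, since it entered the genes tested only through its abemaciclib level. TFF1 and TFF3 had the highest rises with abemaciclib, at 2.66 and 2.47 on the log2 scale. They were followed by STC2 at 1.84, while PGR, GREB1, CA12 and MYB rose by less than 1. With fulvestrant TFF1, PGR and GREB1 had the largest measured falls, whereas TFF3 and STC2 kept 28.5% and 36.5% of their mean DMSO level, and CA12 75.7%. GREB1 and PGR thus combined a small rise with a near loss, TFF3 and STC2 a larger rise with a partial loss, and CA12 a small change both ways. Against DMSO, 6 members kept the order abemaciclib, DMSO, combination and fulvestrant by mean. STC2 exchanged the last places, and in MYB no neighbouring groups in the order were distinguished by the edgeR test. Combination and fulvestrant were neighbours in the order for 7 members and were not distinguished by the test in any of them.

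Whether fulvestrant altered the response to abemaciclib was tested by the interaction. STC2 had the clearest difference, since abemaciclib raised it by 1.84 alone and gave -0.29 in the presence of fulvestrant, an interaction of -2.12 ± 0.17 (SE; edgeR adjusted p 6.31e-09). TFF1 (-1.95 ± 0.40, adjusted p 0.000828) and TFF3 (-1.97 ± 0.45, adjusted p 0.00219) gave values of like size with wider errors, from few reads under fulvestrant. For CA12 the value was smaller, at -0.52 ± 0.10 (edgeR adjusted p 0.000601). For GREB1 the log2 change with abemaciclib was 0.65 alone and 0.72 in the presence of fulvestrant, an interaction of 0.07 (95% CI -0.38 to 0.52, edgeR adjusted p 0.881). PGR gave 0.72 (95% CI -0.48 to 1.91, adjusted p 0.411) and MYB -0.32 (95% CI -0.72 to 0.08, adjusted p 0.26). The fitted value for PDZK1, 0.84 (95% CI -1.06 to 2.74), rests on a fulvestrant group with no reads and is given as a description.

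**Figure D3:**
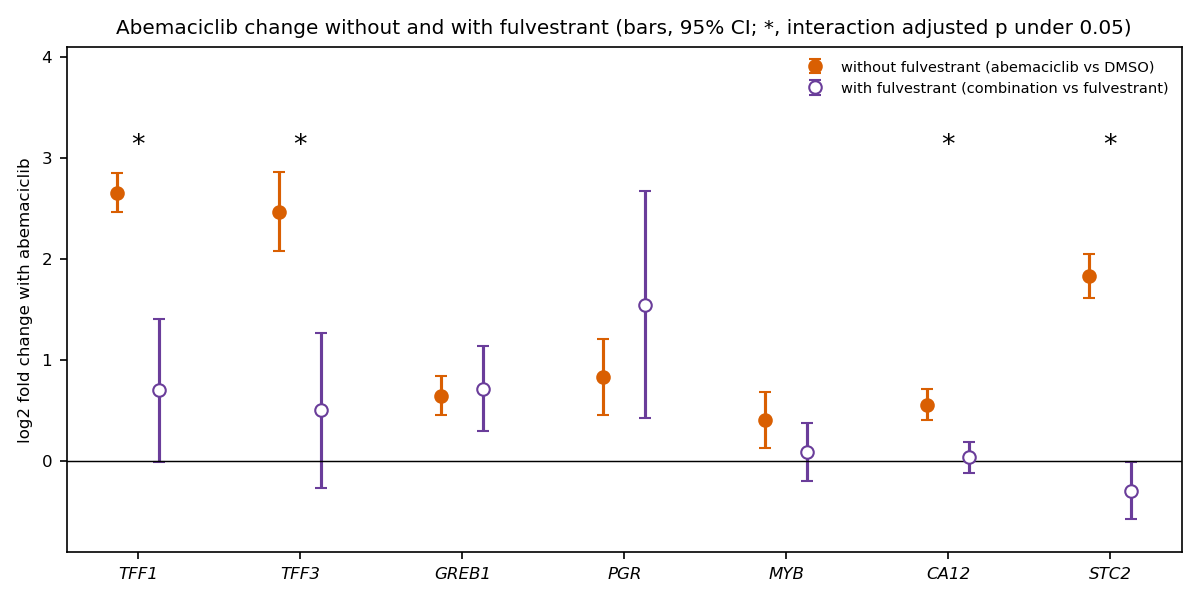
Log2 fold change with abemaciclib (y axis) for 7 members (x axis, PDZK1 left out for lack of reads under fulvestrant), in the absence of fulvestrant (abemaciclib against DMSO) and in its presence (combination against fulvestrant), with 95% confidence intervals; filled points passed the adjusted threshold and asterisks mark genes whose interaction did. STC2 goes from 1.84 to -0.29, while GREB1 stays at 0.65 and 0.72.

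On the linear scale the gain with abemaciclib was smaller in the presence of fulvestrant for every member, a difference that was not tested. For a gene that is low under fulvestrant, a like log2 change gives a smaller gain in CPM. Abemaciclib alone added 321 ± 8.21 CPM (SE) to TFF1 and 0.856 ± 0.493 CPM in the presence of fulvestrant. For GREB1, where the log2 changes were alike, the gain was 46.2 ± 3.68 CPM alone and 3.06 ± 0.754 CPM with fulvestrant. STC2 gained 278 ± 29.1 CPM alone and fell by 7.31 ± 3.35 CPM with fulvestrant. CA12, which kept most of its level under fulvestrant, gained 172 ± 18.9 CPM alone and 7.76 ± 6.55 CPM with it. Among the other members the gain fell from 28.7 ± 3.02 to 0.800 ± 0.263 CPM for TFF3 and from 11.4 ± 2.05 to 1.17 ± 0.517 CPM for PGR. For MYB it fell from 7.61 ± 2.40 to 1.59 ± 0.642 CPM, and for PDZK1 from 3.94 ± 0.482 to 0.310 ± 0.215 CPM.

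The genes most like each member were found by the root mean square difference in fitted log2 fold change over the 3 treated groups, among 9087 genes with a mean of at least 10 CPM in some group. This is a description over 3 group means that share the DMSO libraries. GREB1 and PGR were each other's nearest gene at 0.36, followed for GREB1 by TIAM1, an activator of the small GTPase Rac, and MGP, matrix Gla protein. TIAM1 changed by -0.57 with abemaciclib, where GREB1 rose by 0.65. It lay near GREB1 only with fulvestrant (-4.53 against -4.11) and with the combination (-3.42 against -3.39). TFF1 had no close match, its nearest being PTGES (0.81), which makes prostaglandin E, and then PGLYRP2 (0.99). TFF3 and STC2 shared their nearest genes, MUCL1 (0.41 and 0.24), a breast mucin, and KRT81 (0.48 and 0.21), a hair keratin, and lay 0.50 from each other, nearer than TFF3 lay to TFF1 (2.88). MYB was nearest to ZNF618, CD276 and ZNF74, and CA12 to HLA-B, PMEPA1 and AMPD2, all within 0.08. PDZK1 was nearest to PGR (1.43), a distance that rests on fitted values from a group with no reads.

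Relatives of the members were listed beside them, and the differences between relative and member were not tested. STC1, the other stanniocalcin, read 84.9, 93.3 and 88.3 CPM in DMSO and 30.0, 30.5 and 29.6 CPM with abemaciclib. It fell with abemaciclib by 1.57 ± 0.11 on the log2 scale (SE; edgeR adjusted p 3.8e-12), where STC2 rose by 1.84. It also fell with fulvestrant, by 1.11 ± 0.10 (adjusted p 8.29e-10), to 39.3, 44.6 and 39.7 CPM, and its interaction was positive at 1.18 ± 0.16 (adjusted p 3.63e-06).

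Of the MYB family, MYBL1 read 68.1 ± 7.64 CPM in DMSO (SD, n = 3), 72.4 ± 4.41 with abemaciclib, 10.0 ± 2.98 with fulvestrant and 9.32 ± 1.37 with the combination. Its change with fulvestrant was -2.74 ± 0.16 (log2, SE; edgeR adjusted p 4.39e-14), where that of MYB was -0.0021. MYBL2, an activator of cell cycle genes, fell from 251 CPM in DMSO to 84.3 with abemaciclib and 23.8 with fulvestrant, and to a single read in the 3 combination libraries. GREB1L, the paralogue of GREB1, read 15.1 CPM in DMSO and 9.08 with fulvestrant, a change of -0.71 ± 0.22 (edgeR adjusted p 0.00958) against -4.11 for GREB1. With abemaciclib GREB1L gave 0.36 ± 0.20 (adjusted p 0.145).

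**Figure D4:**
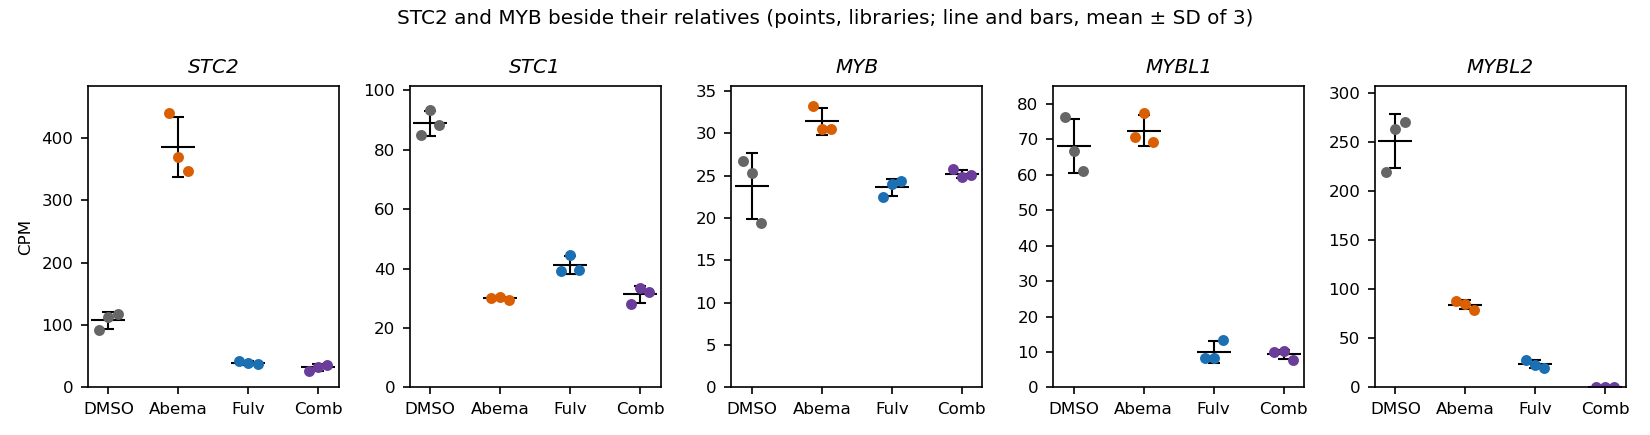
CPM (y axis, linear from 0, scaled per panel) of STC2, STC1, MYB, MYBL1 and MYBL2 in each library (points) by treatment (x axis), with mean ± SD of 3. STC2 is highest with abemaciclib and STC1 highest in DMSO, at 88.8 CPM, while MYBL1 drops to about 10.0 CPM with fulvestrant and MYB stays at 23.6 CPM.

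NR3C1, the glucocorticoid receptor and a nuclear receptor related to PGR, fell from 86.9 to 42.9 CPM with abemaciclib (log2 -1.02 ± 0.11 SE, edgeR adjusted p 2.88e-08), while with the combination it read 72.6 CPM. The PDZ scaffolds SLC9A3R1 and SLC9A3R2 read 779 and 49.5 CPM in DMSO and 753 and 50.7 CPM with fulvestrant. Of the 15 relatives listed, 8 were tested. TFF2, the remaining trefoil gene, held 3 reads in DMSO, 6 with abemaciclib and 0 in both fulvestrant-containing groups.

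A wider list held 36 other oestrogen-induced genes, of which 31 were tested. With abemaciclib 16 were higher (51.6%) and 6 lower (19.4%), with a median of 0.24. Over all genes 20.5% were called higher and 20.7% lower, so the lower count is near the background. Among the 16 was EGR3, which like PDZK1 entered the genes tested only through its abemaciclib level. It held 27 reads in DMSO and 75 with abemaciclib, and its calls are given as a description. With fulvestrant 5 were higher (16.1%) and 20 lower (64.5%, median -0.96), where 25.3% of all genes were called higher and 25.7% lower. With the combination 5 were higher (16.1%) and 22 lower (71.0%, median -1.38), where 27.7% of all genes were called higher and 27.5% lower. The higher counts under these treatments were thus below the background. The combination lay below abemaciclib for 27 and above it for 1 (median -1.43), and no gene of the list was called between combination and fulvestrant by edgeR or by DESeq2. In that last comparison 3 listed genes had an unadjusted p under 0.05 by edgeR, where 1368 of the 11803 genes did. The interaction was positive for 2 (6.45%) and negative for 7 (22.6%), where it was positive for 9.49% of all genes and negative for 11.6%. The shares over all genes given above are the background for these counts.

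Within that list PTGES, the gene nearest to TFF1 though not close to it, read 12.1 ± 1.82 CPM in DMSO (SD, n = 3) and 78.9 ± 4.59 with abemaciclib, and under fulvestrant a single read of it was found in the 3 libraries. CTSD, a lysosomal protease, rose with abemaciclib from 175 to 405 CPM (log2 1.21) and also rose with fulvestrant, to 283 CPM (log2 0.69 ± 0.097 SE, edgeR adjusted p 1.37e-06), which no classical member did. CELSR2, an adhesion receptor of the cadherin family, rose in both as well, by 1.07 and 0.45. CCND1, the cyclin partner of CDK4 and CDK6, rose by 1.10 with abemaciclib.

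Other listed genes fell with abemaciclib. IL17RB, a cytokine receptor, dropped from 10.4 to 1.71 CPM (log2 -2.59 ± 0.36 SE, edgeR adjusted p 1.42e-06) and was also low with fulvestrant, at 1.53 CPM. OLFM1, a secreted olfactomedin protein, changed by -0.91, PKIB, an inhibitor of protein kinase A, by -0.78, and RET, a receptor tyrosine kinase, by -0.60, all past the threshold. With fulvestrant, among listed genes with a mean of at least 10 CPM in DMSO or fulvestrant, the largest falls were those of PTGES, of the fatty acid elongase ELOVL2 (-3.51 ± 0.11), of the membrane protein SUSD3 (-2.76 ± 0.16) and of MYBL1. ABCA3, a lipid transporter, and RARA, a retinoic acid receptor, rose with fulvestrant by 0.70 and 0.58, and ABCA3 was the listed gene that was higher with the combination than with abemaciclib (0.26, edgeR adjusted p 0.0383). In the same comparison HSPB8, a small heat shock protein, fell by 3.35 ± 1.04 (edgeR adjusted p 0.0376), with libraries that varied widely within groups.

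**Figure D5:**
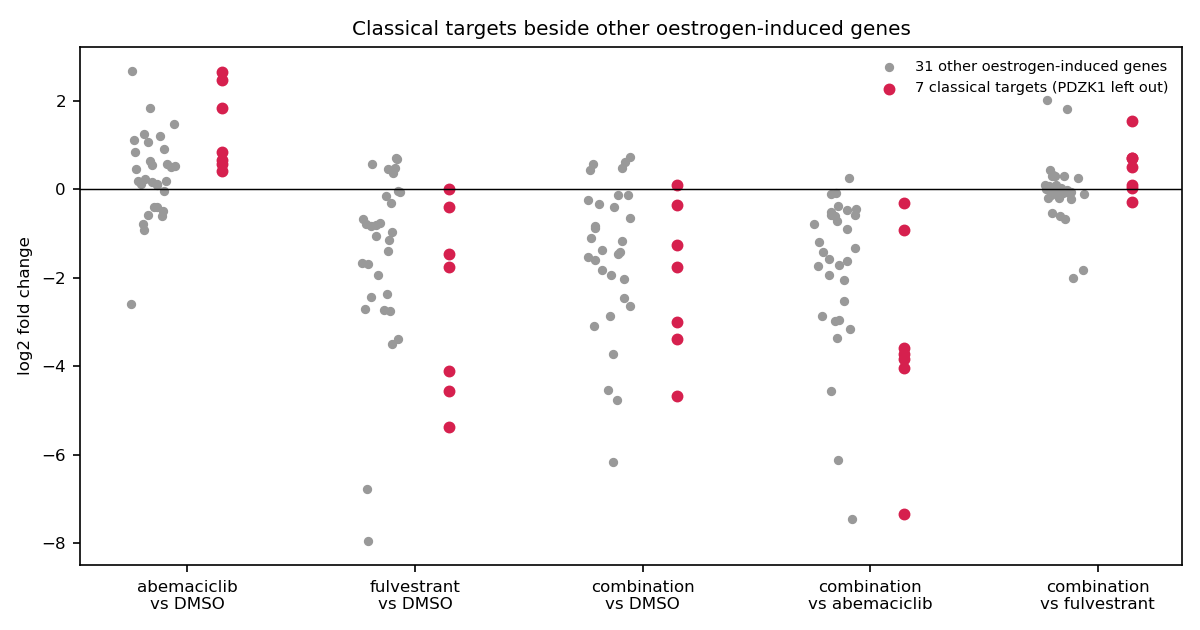
Log2 fold change (y axis) in 5 comparisons (x axis) of 31 other oestrogen-induced genes (grey, 1 point per gene) and of 7 classical members (red, PDZK1 left out). All 7 red points lie above 0 for abemaciclib against DMSO, where the grey points have a median of 0.24; the lowest grey points under fulvestrant rest on very few reads.

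The transcript of the receptor itself moved little. ESR1 read 93.3 ± 5.42 CPM in DMSO (SD, n = 3), 103 ± 3.43 with abemaciclib, 95.3 ± 10.3 with fulvestrant and 81.5 ± 4.52 with the combination. It was lower with the combination than with abemaciclib by 0.33 ± 0.092 (log2, SE; edgeR adjusted p 0.00598), and its interaction was -0.37 ± 0.13 (adjusted p 0.0434). Receptor protein was not measured in these libraries.

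The labelled cell type was checked against marker genes. The 8 luminal epithelial markers summed to between 5625 and 7722 CPM per library, and the 4 basal markers to between 0.758 and 2.05 CPM. Immune markers summed to at most 1.73 CPM and endothelial markers to at most 0.846 CPM, with CD3E, PECAM1 and CDH5 at 0 in all libraries. The 5 stromal markers summed to 18.4 to 22.4 CPM in DMSO, 27.0 to 33.6 CPM with abemaciclib, 29.9 to 39.2 CPM with fulvestrant and 25.4 to 28.6 CPM with the combination, with COL1A2 and PDGFRB at 0 in every library. Luminal markers summed to 5625 to 5949 CPM in DMSO, 6631 to 6782 CPM with abemaciclib, 7087 to 7722 CPM with fulvestrant and 6740 to 7445 CPM with the combination. Both sums were thus above DMSO without overlap in each treated group, and the part of either list in the results was not tested. Single luminal markers did not all follow their sum. Of the 8, 3 were called higher and 1 lower with abemaciclib, 5 and 0 with fulvestrant, and 3 and 2 with the combination. Over all genes the shares were 20.5% and 20.7%, 25.3% and 25.7%, and 27.7% and 27.5%. GATA3 fell from 3019 to 2576 CPM with abemaciclib, and with the combination KRT8 fell from 268 to 203 and KRT18 from 522 to 417 CPM.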

How the data were processed

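CAMA-1 RNA was made into 3′ QuantSeq libraries, 12 in all. The deposited values are the authors' unnormalised counts of reads, 1 row per gene symbol, obtained per the study's methods by trimming with BBDuk, alignment to GRCh38 with STAR and counting with featureCounts 2.0.1 on GENCODE 35; whether strand was used is not given in the sources used here, so reads of overlapping genes may be shared. The kit primes at the 3′ end, so gene length plays little part in a count. Of 60656 rows, 44 had no name and 0 reads and were left out; no count column was left unmapped (0).

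Groups followed the treatment label. In R 4.3.3, edgeR 4.0.16 (with limma 3.58.1) fitted 1 quasi-likelihood model with robust dispersions, TMM factors and 4 group means to all 12 libraries, after filterByExpr by group (minimum count 10, minimum total 15). P values were adjusted by Benjamini-Hochberg over 11803 genes with a threshold of 0.05. SE and 95% confidence intervals were derived from each log2 fold change and its F statistic, since the test itself gives neither. Interval and p value can therefore differ somewhat, mainly at low counts. DESeq2 1.42.0, the study's test, was an alternative, beside other scalings, filters, a replicate block, thinning and leaving out each library. An exact permutation test of 3 against 3 cannot go below 0.1 and was not used. CPM are counts divided by TMM-scaled library sizes. A group without reads was set to a floor of 3 counts over its 3 libraries, and Poisson intervals (95%) cover counting error only, since no molecular identifiers are named. Scripts were tested on simulated data.

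All 8 members are named. From the lists of other oestrogen-induced genes, ER cofactors and relatives, up to 4 genes per direction and comparison were chosen by size among those called with at least 10 CPM in a compared group, and not all of them are reported here. Members and lists were chosen with earlier results of these data known. Coordinates are from GENCODE gene models matched by symbol. TFF1, TFF3 and GREB1 had no promoter entry, and protein sequences were not used here. Same-numbered replicates did not deviate together (r from -0.21 to 0.12 over 18 pairs), and replicates of a group differed beyond sampling noise. Nothing beyond the label "biological replicate" describes how cultures were kept apart.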

Additional observations from a re-analysis of the deposited data

Results flagged for a closer look

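For 4 of the 8 genes the response to abemaciclib differed with and without fulvestrant, as tested by the interaction in the edgeR quasi-likelihood model with Benjamini-Hochberg adjustment over all genes tested. On the log2 scale the interaction was -1.95 for TFF1 (adjusted p 0.000828), -1.97 for TFF3 (adjusted p 0.00219), -0.52 for CA12 (adjusted p 0.000601) and -2.12 for STC2 (adjusted p 6.31e-09). All 4 stayed past the threshold in every alternative in which they were fitted, with values from -2.32 to -1.70 for TFF1, -2.15 to -1.57 for TFF3, -0.58 to -0.41 for CA12 and -2.25 to -2.01 for STC2. Under fulvestrant TFF1 was measured from 17 reads and TFF3 from 22, while CA12 had 3269 and STC2 470. With 3 libraries per group no single library was tested as an outlier.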

How the results depend on the processing

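Each member's log2 fold change was recomputed under each alternative, and 1173 values kept direction and side of the threshold, 2 passed it newly, 5 fell short of it and 16 changed sign, none of them a called value. MYB with fulvestrant against DMSO changed sign most often, at 0.019 with upper-quartile factors, 0.0038 with no filter on low counts, 0.0028 with mitochondrial transcripts left out, 0.035 with all libraries thinned to the smallest total, and from -0.12 to 0.081 with each library left out. MYB with the combination against DMSO ranged from -0.035 (without DMSO replicate 3) to 0.17. The interaction of PDZK1 was -0.023 with DESeq2 and ran from -0.44 (without combination replicate 1) to 1.42 with a library left out, and that of GREB1 ran from -0.062 (without combination replicate 2) to 0.21. MYB with abemaciclib against fulvestrant, called at 0.41, missed the edgeR threshold without abemaciclib replicate 1 (adjusted p 0.0909) or fulvestrant replicate 1 (0.0837), and missed it with DESeq2 (0.0563). The causes were not tested.

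Requiring at least 10 counts in every library left 4 members (GREB1, MYB, CA12 and STC2), because each of the others held fewer reads than that in some fulvestrant library. Of these, 4 were higher with abemaciclib than in DMSO and 4 higher than with fulvestrant, 3 were lower with fulvestrant, 3 with the combination and 3 with the combination than with abemaciclib, and 2 had a negative interaction. This filter left 9748 genes, of which 2122 were called higher with abemaciclib than in DMSO and 1510 higher than with fulvestrant. Against DMSO, fulvestrant gave 5166 calls (2605 higher) and the combination 5543 (2819 higher). The combination against abemaciclib gave 3345 calls (1623 higher), and the interaction 2305 (1070 positive). With 1 library left out, the member counts were 7 to 8 for abemaciclib against DMSO, 0 to 1 for the combination above fulvestrant, 7 to 8 for abemaciclib above fulvestrant, and the reported count in the other comparisons. Over all genes, calls then ran from 3998 to 5362 for abemaciclib against DMSO and from 2733 to 3492 for abemaciclib against fulvestrant. Those between combination and fulvestrant ran from 146 to 588. The 588 came without fulvestrant replicate 3, and leaving out any other library gave at most 246. Of the other oestrogen-induced genes, those higher with the combination than with abemaciclib numbered 0 with DESeq2, 0 with no filter and 0 to 1 with a library left out. Over all genes tested they numbered 1522 of 11803 with DESeq2 and 1753 of 24079 with no filter. Those higher with the combination than with fulvestrant numbered 1 with library totals only, where 52 of all 11803 genes were, and 0 to 1 with a library left out. Those with a positive interaction numbered 1 with no filter, where 1034 of all 24079 genes had one, and 1 to 3 with a library left out. After thinning, 1 was lower with abemaciclib than with fulvestrant, where 3067 of all 11398 genes were called and 1647 of these were higher.

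With a replicate block, MYB with fulvestrant against DMSO was 1.58e-05, the calls between combination and fulvestrant went from 227 to 203 genes, and no call of a member changed. The strict filter took the same calls to 91 genes and fitting only these 6 libraries to 130. Of the 12 libraries, 5 correlated best with their own number, so no pairing by number was detected. Whether cultures of the same number were handled together is not given by the labels. Depth limits PDZK1 in all groups but abemaciclib, and PGR, TFF1 and TFF3 under fulvestrant, where they held 7, 17 and 22 reads.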

Other observations

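Of 13 listed cofactors and partners of ER, all tested, abemaciclib raised 2 and lowered 2 and fulvestrant raised 8 and lowered 1 (quasi-likelihood test of edgeR, p adjusted by Benjamini-Hochberg, threshold 0.05). Over all genes tested, abemaciclib raised 20.5% and lowered 20.7%, and fulvestrant raised 25.3% and lowered 25.7%, so the abemaciclib counts are near the background. GRHL2, an epithelial transcription factor, rose by 0.34, while the acetyltransferase EP300 changed by -0.39 and GATA3 by -0.23. With fulvestrant the median over the list was 0.36. The coactivator NCOA2 rose by 0.65 ± 0.098 (log2, SE), the pioneer factor FOXA1 by 0.54 ± 0.091, from 227 to 329 CPM, and the corepressor NCOR1 by 0.49 ± 0.090, and the gene that fell was TFAP2C (-0.26 ± 0.080).

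With the combination, 6 of these genes were higher than in DMSO and 2 lower, where 27.7% of all genes were called higher and 27.5% lower. FOXA1 was the only one called between combination and fulvestrant (-0.34 ± 0.091, edgeR adjusted p 0.0428), a comparison in which no classical target was called. GATA3 read 3019 CPM in DMSO, 2576 with abemaciclib, 3688 with fulvestrant and 3680 with the combination, and was 0.51 ± 0.089 higher with the combination than with abemaciclib (edgeR adjusted p 6.02e-05).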
